A study of Prunus persica with 20 samples.

Results

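MN, the Maravilha nectarine mutant, was compared with TN11, a peach, in young fruit of *Prunus persica*. MN is stated Gg at G, the locus that separates hairy peaches from smooth nectarines, and it arose from a peach. TN11 is stated GG. The 5 MN libraries (numbered 1, 3, 4, 5 and 6) and the 5 TN11 libraries (numbered 1 to 5) were taken by their titles, 10 samples of the 20 in the series. The others are Sunraycer, a nectarine stated gg (5 libraries), and TN7, a peach stated Gg (4 libraries analysed here). All libraries were made from total RNA of fruit at fruit set, when the ovary has begun to grow into a fruit. No treatment is stated for any group. Within the comparison of MN with TN11, a single accession stands for each genotype. A difference of genotype or of fruit surface therefore cannot be told apart from the other differences between MN and TN11. Whether TN11 is related to the peach that gave rise to MN is not stated. The labels do not tell whether replicates came from separate trees or fruits. All p-values rest on the spread between these libraries, and that spread could be technical.

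Fruit hairs are trichomes, single elongated cells that grow out of the fruit epidermis early in development. In many plants, MYB transcription factors of the MIXTA type start or extend such outgrowths, and the same factors also take part in forming the waxy cuticle. In peach the dominant G allele gives hair, and a plant without it bears smooth nectarines. MN is smooth although it is stated to carry one G allele, which makes its comparison with a GG peach the contrast between a smooth mutant and a full hairy genotype.

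The deposited table pairs no gene ID with a name, and 0 of its 26811 IDs matched the RefSeq gene table used here. Genes are therefore given by ID, and the lists of genes by function and by cell type could not be applied, nor could the labelled tissue be checked against marker genes. The exception is the G locus gene, whose name comes from published work on the locus. The number before the G in an ID is the chromosome, and the numbers after it were taken to follow the order of the genes along it.

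The G locus gene Prupe.5G196100.v2.1 (PpMYB25, a MYB transcription factor needed for fruit hair) was examined first as a check on the labels. In MN it stood at 2.55, 2.24, 3.25, 4.27 and 4.08 CPM (counts scaled to a common library size with TMM factors) in libraries 1, 3, 4, 5 and 6. In TN11 it stood at 57.1, 33.8, 41.4, 44.0 and 47.0 CPM in libraries 1 to 5. The lowest TN11 library was far above the highest MN library, and the groups did not overlap. The difference was 13.6-fold (log2 −3.76, SE 0.338, adjusted p = 1.69e-07, from the quasi-likelihood test of edgeR with Benjamini-Hochberg adjustment over all tested genes). The exact two-sided permutation test on CPM gave p = 0.00794, the smallest that 5 libraries against 5 can give. The mean was 3.28 CPM in MN, 16.9 CPM in TN7, also stated Gg, and 2.43 CPM in Sunraycer, stated gg. The gene was thus low in both smooth accessions, and it did not place MN with the other accession stated Gg. In whole fruit, fewer cells that express a gene and less transcript in each cell cannot be told apart, here and in every result that follows.

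The genes beside PpMYB25 showed no common shift. Over the 40 tested genes nearest to it in ID order, 20 on each side, the median log2 difference of MN minus TN11 was 0.0152 (quartiles −0.497 and 0.341), with 2 genes called higher and 5 called lower. A gene was called when its edgeR adjusted p was below 0.05 and its difference at least 2-fold. Over all 19360 tested genes, 3.88% were called higher and 11.1% lower in MN, so 5 lower and 2 higher genes of 40 lie near the background.

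**Figure D1:**
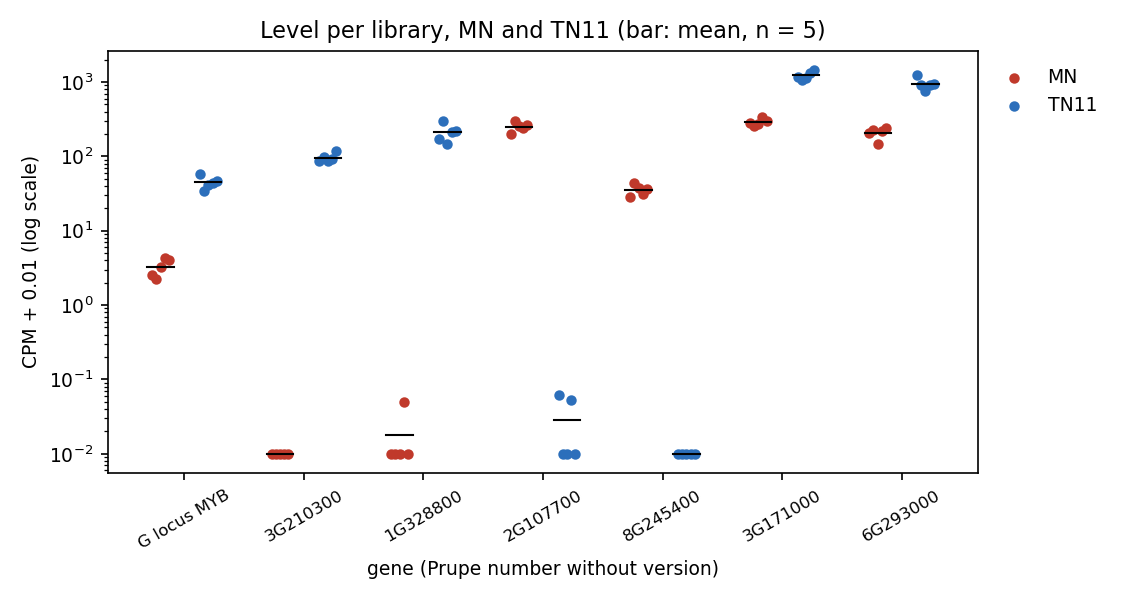
Level of the G locus gene and of 6 other genes in each MN and TN11 library, in CPM + 0.01 on a log scale, with a bar at the mean of 5 libraries. The MN and TN11 libraries do not overlap for any gene shown, and libraries with no count lie at 0.01. For the genes chosen by their largest difference, no overlap was a condition of the choice.

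Most genes that differed between the accessions had lower levels in MN. Of the 19360 genes tested, 2904 (15.0%) were called, 2152 lower and 752 higher in the mutant, so that 74.1% of the calls were lower. The median log2 difference over all tested genes was −0.0183. The lower genes also differed by more: their median difference was 3.97-fold, against 2.91-fold for the higher genes. Differences over 8-fold were found in 572 lower and 141 higher genes, and differences over 32-fold in 210 lower and 61 higher genes. A further 3569 genes passed the adjusted p but differed by less than 2-fold, and there 1900 were higher and 1669 lower. The excess of lower genes was thus a feature of the larger differences.

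The libraries of the accessions separated fully for most called genes. Every MN library lay below every TN11 library in 1784 of the 2152 lower genes, and above in 667 of the 752 higher genes. Among all tested genes 33.9% had groups that did not overlap, with MN below in 17.3% and above in 16.6%. The remaining 368 lower and 85 higher calls had at least 1 library inside the range of the other accession.

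**Figure D2:**
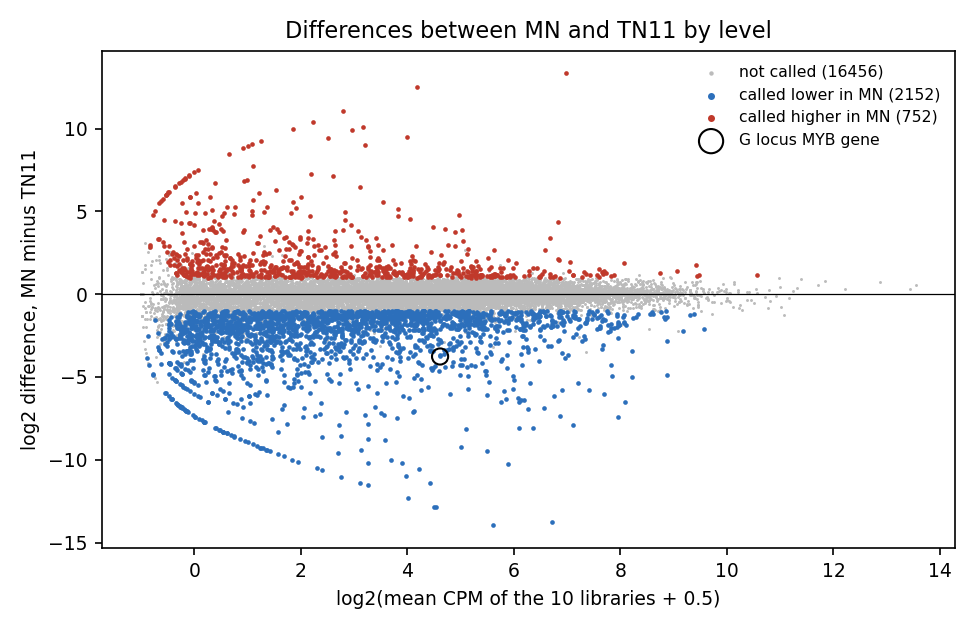
Each point is a tested gene, with its mean level over the 10 libraries on the x axis (log2 of CPM + 0.5) and its log2 difference, MN minus TN11, on the y axis. The 2152 lower genes reach farther from 0 and outnumber the 752 higher genes, and the circled G locus gene lies at −3.76.

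Genes with few reads were called more often than genes with many. With a mean below 1 CPM over the 10 libraries, 22.4% of 1916 genes were lower and 10.2% higher in MN. With a mean above 100 CPM, 5.53% of 2262 genes were lower and 1.503% higher. Lower genes outnumbered higher ones in each of the 4 level classes. The filter on low counts keeps genes with enough counts in as few libraries as the smallest accession has. Genes with a low mean can thus be kept through one accession where they are high, and how far this raises their share of calls was not tested. The 2152 lower genes together held 8.27 ± 0.780% of all counts in TN11 (SD, n = 5) and 2.29 ± 0.317% in MN (SD, n = 5). The 752 higher genes held 0.912 ± 0.0912% in TN11 and 2.499 ± 0.2905% in MN (SD, n = 5 each). These shares describe genes chosen on the same libraries and are not a test. Over the lower genes, the median of the mean CPM per gene was 7.76 in TN11, 4.91 in TN7, 4.52 in Sunraycer and 1.52 in MN. Over the higher genes it was 1.39 in TN11, 2.75 in TN7, 3.09 in Sunraycer and 5.52 in MN. In both directions TN7 and Sunraycer had medians between those of MN and TN11. Choosing genes for a difference between MN and TN11 favours this order, so it is not a test either.

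The 10 libraries also spread within their accessions. Across genes, log2 CPM correlated at 0.955 to 0.986 between MN libraries and at 0.967 to 0.992 between TN11 libraries, and at 0.850 to 0.924 between the accessions. The first principal component, with 69.4% of the variance, held MN at −102.7 to −49.6 and TN11 at 62.4 to 97.8. The second, with 12.7%, spread the libraries of each accession from one side to the other and did not separate MN from TN11. Total counts lay between 16857056 (MN 1) and 24126571 (MN 5), and 21053 to 21776 genes had a count in each library.

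**Figure D3:**
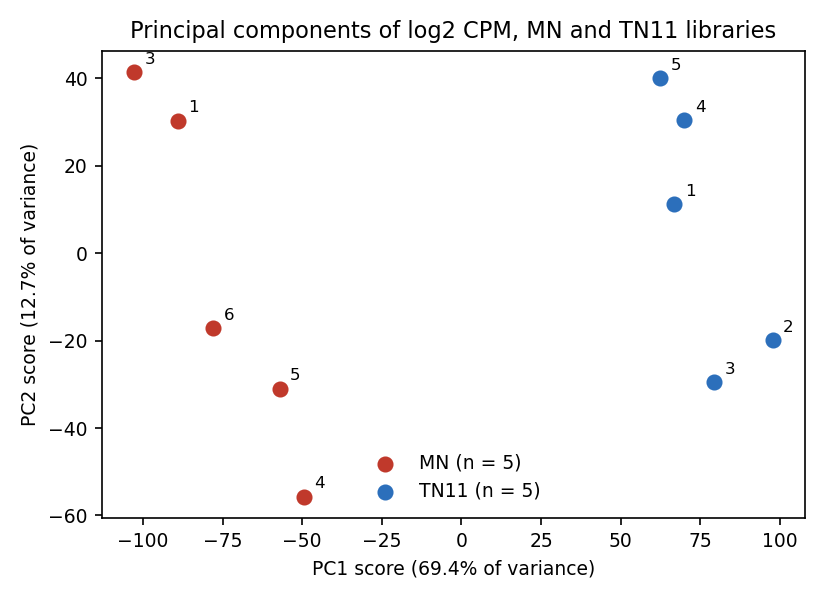
Scores of the 5 MN and 5 TN11 libraries on the first and second principal components of log2 CPM, with replicate numbers beside the points. The first component (69.4% of variance) separates the accessions, and the second (12.7%) spreads the libraries of each.

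Most MN libraries also lay apart from TN11 along the main direction of spread within the 4 accessions. Positions on it, scaled so that their squares sum to 1 over the 19 libraries, ran from −0.385 to −0.0657 in MN and from −0.122 to 0.118 in TN11, and MN 4 was the one MN library inside the TN11 range. With that position as a covariate, edgeR called 2473 genes, 623 higher and 1850 lower, of which 2125 were among the 2904. The position keeps accession means, so it can take up part of the difference between the accessions. A second fit used as its covariate the score on this direction with accession means removed, called the score within accessions. It called 3266 genes, 815 higher and 2451 lower, of which 2889 were among the 2904. The part of this direction in single results was not tested beyond these fits.

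The genes with the largest lower values were practically silent in MN. Prupe.3G210300.v2.1 had no count in any MN library and 87.0, 98.9, 87.1, 92.1 and 117 CPM in TN11 libraries 1 to 5. It was at least 3504-fold lower in MN, counted against 3 counts over the MN libraries (edgeR adjusted p = 6.13e-10). Its TN7 level, 94.0 ± 16.9 CPM (SD, n = 4), was close to that of TN11, and Sunraycer had no count.

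Prupe.1G328800.v2.1 had 170, 301, 146, 212 and 221 CPM in TN11 libraries 1 to 5. Its reads in MN came to a single count, in MN 5. The ratio was 22889, with an exact 95% Poisson interval of 4108 to 904073 that covers counting error only (edgeR adjusted p = 4.68e-13). TN7 had 232.7 ± 82.0 CPM (SD, n = 4), and Sunraycer 7 counts in all. Both genes were thus expressed in each peach library and nearly or fully without reads in both nectarines.

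In the other direction, Prupe.2G107700.v2.1 had 202, 297, 259, 239 and 264 CPM in MN libraries 1, 3, 4, 5 and 6. TN11 had 2 counts of it, 1 in TN11 1 and 1 in TN11 4. The ratio was 13708 (exact 95% Poisson interval 3795 to 113194, edgeR adjusted p = 4.30e-13). TN7 had 258.4 ± 53.7 CPM (SD, n = 4) and Sunraycer 102.2 ± 31.8 CPM (SD, n = 5), so that TN11 was the one accession almost without it.

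Prupe.8G245400.v2.1 had 28.7, 43.4, 37.2, 31.1 and 36.4 CPM in MN, and TN11 was without reads of it. It was at least 1281-fold higher in MN (edgeR adjusted p = 2.83e-07). TN7 had no count either, and Sunraycer had 2.09 ± 1.08 CPM (SD, n = 5). This gene was therefore read in both nectarines and in neither peach, at a far higher level in MN.

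Some genes had no reads at all in one accession. No count in any MN library and at least 1 CPM in every TN11 library was found for 29 genes, while the reverse held for 9. Among the 29 genes absent from MN, the median of the mean TN11 level was 4.07 CPM, 7 genes reached a mean of 10 CPM, and the highest mean was 96.4 CPM. TN7 had at least 1 CPM in every library for 20 of the 29 and no count for 1. Sunraycer had at least 1 CPM in every library for 5, no count for 11 and lay between for 13. Among the 9 genes absent from TN11, TN7 had no count for 5 and Sunraycer for 3. The depth of these libraries allows up to 3 counts over a group in which a gene had none, so absence means below that limit.

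The second gene of each kind by level was Prupe.1G439600.v2.1 and Prupe.1G273800.v2.1. Prupe.1G439600.v2.1 was without reads in every MN library and had 34.6, 63.5, 24.96, 49.6 and 53.2 CPM in TN11 libraries 1 to 5, at least 1641-fold lower in MN (edgeR adjusted p = 2.20e-09). Prupe.1G273800.v2.1 had 12.4, 14.0, 12.7, 12.1 and 13.1 CPM in the MN libraries and was without reads in TN11, which makes it at least 466-fold higher in MN (edgeR adjusted p = 1.38e-07). The former varied between TN11 libraries more than the latter did between MN libraries.

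Among genes that took the most reads, with CPM not corrected for gene length, the leading lower calls held under every alternative tried and the leading higher calls did not. Prupe.3G171000.v2.1 stood at 279, 256, 273, 344 and 299.6 CPM in MN and at 1174, 1066, 1136, 1309 and 1455 CPM in TN11, 4.23-fold lower in MN (log2 −2.08, SE 0.280, edgeR adjusted p = 1.93e-05). Prupe.6G293000.v2.1 stood at 205, 223, 148, 219 and 239 CPM in MN and at 1236, 902, 752, 905 and 954 CPM in TN11, 4.59-fold lower (log2 −2.20, SE 0.255, edgeR adjusted p = 3.62e-06). Neither gene had overlapping groups.

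Prupe.3G174700.v2.1 had the highest mean level of the genes called higher, 2087 ± 364 CPM in MN and 935 ± 140.3 CPM in TN11 (SD, n = 5 each). Its difference was 2.23-fold (log2 1.16, SE 0.335, edgeR adjusted p = 0.0130), and the groups did not overlap, with 1614 CPM in the lowest MN and 1079.95 CPM in the highest TN11 library. Prupe.3G248700.v2.1 had 1054 ± 227 CPM in MN and 312 ± 65.5 CPM in TN11 (SD, n = 5 each), a difference of 3.38-fold (log2 1.76, SE 0.516, edgeR adjusted p = 0.0142). With the position on the direction of spread as a covariate neither was called: the log2 differences were 0.566 (SE 0.271, adjusted p = 0.124) and 0.749 (SE 0.388, adjusted p = 0.157). With the score within accessions as the covariate both were called in edgeR. The log2 differences were then 1.17 (SE 0.238, adjusted p = 0.000727) and 1.76 (SE 0.346, adjusted p = 0.000554).

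Called genes were found on all 8 chromosomes. The share of tested genes called ran from 13.4% on chromosome 1 to 17.3% on chromosome 2. Lower genes made up 10.01% (chromosome 7) to 12.9% (chromosome 2). Higher genes varied more, from 2.79% of 4335 tested genes on chromosome 1 to 6.16% of 1932 on chromosome 8. No test was made of these shares.

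In some places neighbouring genes were called together. Stretches of at least 5 consecutive tested genes called in one direction numbered 10, of which 7 were lower and held 41 genes, and 3 were higher and held 23. Chromosome 8 held the longest higher stretches, with 10 and 8 genes, and outside stretches 5.28% of its genes were still higher. Neighbouring genes are often copies of each other, and how reads shared by near-identical copies were divided is not given in the sources used here, so levels of single members are uncertain and sums over a stretch were used. These sums were chosen by the calls, so they are described without a test.

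The 10 tested genes from Prupe.8G078900.v2.1 to Prupe.8G081700.v2.1, with 19 untested genes among them, summed to 53.2, 89.5, 64.9, 53.0 and 68.2 CPM in MN libraries 1, 3, 4, 5 and 6. In TN11 they summed to 12.2, 12.9, 17.2, 8.22 and 6.26 CPM. TN7 had 24.9 ± 25.1 CPM (SD, n = 4), with 61.8 CPM in TN7 5. Sunraycer had 172.1 ± 83.3 CPM (SD, n = 5), a higher sum than that of MN. Most of the Sunraycer sum came from Prupe.8G081000.v2.1 (mean 100.4 CPM) and Prupe.8G080300.v2.1 (mean 52.5 CPM). Over the genes of the stretch, the median of the mean CPM was 4.51 in MN and 1.24 in Sunraycer, the opposite order.

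The 8 genes from Prupe.8G026400.v2.1 to Prupe.8G027100.v2.1, with none untested between, behaved differently. They summed to 50.1, 54.0, 53.0, 47.4 and 47.0 CPM in MN and to 3.80, 5.51, 4.31, 4.92 and 4.57 CPM in TN11. TN7 had 17.6 ± 1.87 CPM (SD, n = 4) and Sunraycer 0.565 ± 0.421 CPM (SD, n = 5). The accessions stated Gg had the higher sums, GG was low and gg lower still, with a small spread within MN, TN11 and TN7.

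On chromosome 5, away from the G locus gene in ID order, the 8 genes from Prupe.5G108900.v2.1 to Prupe.5G109700.v2.1 summed to 35.1, 45.1, 89.5, 56.4 and 35.0 CPM in MN. In TN11 the sums were 184, 360.4, 279, 395 and 337 CPM. TN7, with 152.0 ± 49.6 CPM (SD, n = 4), and Sunraycer, with 172 ± 66.2 CPM (SD, n = 5), lay between.

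On chromosome 1, the 7 genes from Prupe.1G498200.v2.1 to Prupe.1G498900.v2.1 varied widely within each accession. They summed to 5.55, 2.51, 46.9, 21.0 and 22.5 CPM in MN and to 177, 326, 130, 213 and 85.8 CPM in TN11. TN7 and Sunraycer were above TN11 on average, at 544 ± 382 CPM (SD, n = 4) and 384 ± 251 CPM (SD, n = 5). A stretch of 5 lower genes on chromosome 4 had a different form: 3 of its genes had no count in any MN library.

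**Figure D4:**
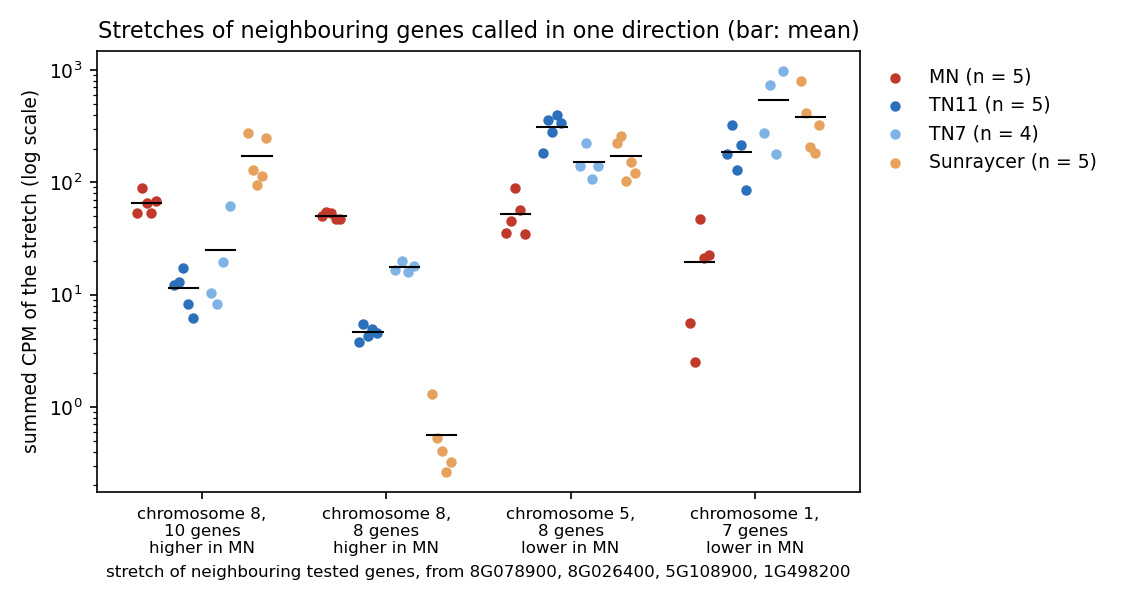
Summed CPM (log scale) of the longest 2 higher and longest 2 lower stretches of neighbouring genes, per library, with a bar at the accession mean. The sums of MN and TN11 do not overlap in any of the 4 stretches. Sunraycer sums lie above those of MN in the first stretch and far below them in the second.

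MN minus TN11 was then set beside Sunraycer minus TN7, a nectarine and peach pair with which it shares no library. Both came from the same fit, with dispersions estimated from all 19 libraries, so their calls are not fully independent. The shares over all tested genes given beside them were not matched for level or dispersion. In that pair 6.45% of tested genes were called lower and 9.71% higher in Sunraycer. The larger the deficit of MN against TN11, the larger the share of genes also called lower in Sunraycer: 19.9% of the 1085 genes that were 2 to 4-fold lower in MN, 22.0% of the 495 that were 4 to 8-fold lower, 43.1% of the 362 that were 8 to 32-fold lower, and 65.2% of the 210 over 32-fold lower. Genes called higher in Sunraycer outnumbered the lower ones in the 4 to 8-fold group (29.5% higher, median Sunraycer minus TN7 log2 difference 0.302), and made up 23.8% of the 8 to 32-fold group. In the group over 32-fold lower, 137 genes were called lower and 25 higher (11.9%) in Sunraycer, and the median Sunraycer minus TN7 log2 difference was −3.75 (quartiles −6.29 and −0.544).

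Among the genes 2 to 4-fold lower in MN, 21.7% were called higher in Sunraycer than in TN7, a share like that of the lower calls, and the median Sunraycer minus TN7 log2 difference was 0.0432. Over all 2152 lower genes the median was −0.0754, near the −0.0635 of all tested genes. Of the 498 genes 2 to 4-fold higher in MN, 8.84% were called higher and 7.43% lower in Sunraycer, near the background. Higher calls outnumbered lower ones in the other groups of higher genes: 29.2% against 10.6% of the 113 genes that were 4 to 8-fold higher, 28.75% against 16.25% of the 80 that were 8 to 32-fold higher, and 37.7% against 18.0% of the 61 over 32-fold higher.

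**Figure D5:**
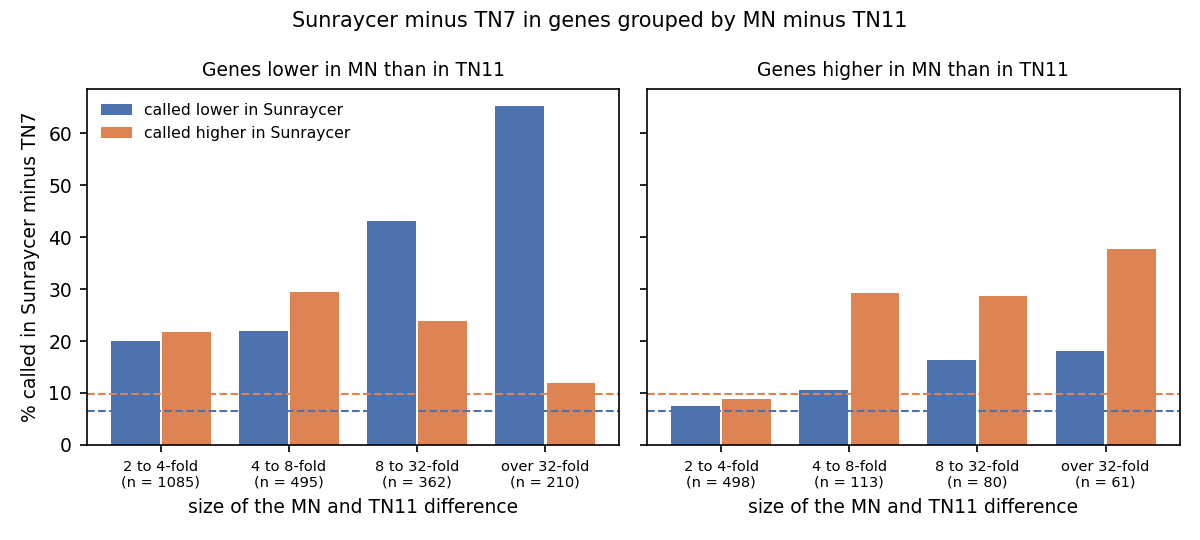
Percent of genes called lower or higher in Sunraycer minus TN7, for genes grouped by direction and size of MN minus TN11 (number of genes under each pair of bars). Dashed lines mark the percent over all tested genes (6.45% lower, 9.71% higher), and the bar for genes over 32-fold lower in MN reaches 65.2%.

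The difference between these pairs was tested gene by gene as (MN minus TN11) minus (Sunraycer minus TN7). It was called for 4744 genes (24.5% of those tested), 1725 higher (8.91%) and 3019 lower (15.6%). With the position on the direction of spread as a covariate the count was 1763, with 629 higher and 1134 lower. With the score within accessions as the covariate it was 5655, with 2260 higher and 3395 lower. Sunraycer lay at 0.0848 to 0.605 on that direction and TN7 at −0.184 to 0.187, so that Sunraycer and MN, the nectarine of each pair, did not overlap and stood on opposite sides of 0. In the other pair PpMYB25 averaged 16.9 ± 2.00 CPM over the TN7 libraries (SD, n = 4), while Sunraycer averaged 2.43 ± 1.63 CPM (SD, n = 5). The gene was not called: its interaction was −0.976 (SE 0.460, edgeR adjusted p = 0.0944), and the log2 difference of −3.76 between MN and TN11 was thus not shown to differ from that between Sunraycer and TN7.

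Prupe.4G234300.v2.1 and Prupe.2G023900.v2.1 had the largest positive values. The former had 3.91, 2.96, 3.21, 2.49 and 2.501 CPM in MN, 2.48 ± 0.228 CPM in TN7 (SD, n = 4), and was not read at all in TN11 or Sunraycer (edgeR adjusted p = 2.94e-08 for the interaction). Prupe.2G023900.v2.1 had 15.2, 14.1, 13.0, 13.8 and 16.2 CPM in MN, 4.99 ± 0.671 CPM in TN7 (SD, n = 4), 1 count over TN11 and 5 over Sunraycer (edgeR adjusted p = 9.34e-11 for the interaction). Both were present in the accessions stated Gg and nearly absent from GG and gg. On the log2 scale the interaction also sets MN and TN7, both stated Gg, against TN11 and Sunraycer. Choosing its largest values therefore favours this pattern or its reverse, so the pattern is not a test of genotype.

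Prupe.7G044600.v2.1 showed the reverse, with 14.6, 9.84, 10.4, 11.3 and 13.6 CPM in TN11, 3.24 ± 1.56 CPM in Sunraycer (SD, n = 5), 1 count over MN and none in TN7 (edgeR adjusted p = 6.37e-09 for the interaction). Prupe.1G205600.v2.1 had 137, 164, 202, 13.7 and 34.5 CPM in TN11, 1184 ± 727 CPM in Sunraycer (SD, n = 5) and not a read in TN7 (edgeR adjusted p = 5.25e-05 for the interaction). In MN it stood at 1.13, 0, 2.75, 21.0 and 0.324 CPM, so MN 5 reached the range of TN11. Its MN minus TN11 value was −4.43 (SE 1.16, edgeR adjusted p = 0.00887), and −6.70 (SE 1.10, adjusted p = 0.000456) without MN 5. With the position on the direction of spread as a covariate it was no longer called, at −3.22 (SE 1.197, adjusted p = 0.0551). With the score within accessions as the covariate it was called, at −4.61 (SE 1.03, edgeR adjusted p = 0.00228).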

How the data were processed

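RNA was measured in 19 libraries of 4 accessions, grouped by sample title. The authors deposited estimated counts per gene, not normalized and all whole numbers (0 values were not whole). The submitters' processing notes list Bowtie2 2.5.1, RSEM 1.2.31, R 4.1.1 and DESeq2 and attach no role to them. The labels' protocols give the RNeasy Plant Mini Kit and the TruSeq Stranded mRNA kit. The genome build, the read filters and the use of strand are not stated, so reads of genes that overlap, or lie antisense, may be mixed. Replicate 4 of TN7 was not analysed here.

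From these counts, filterByExpr of edgeR kept 19360 of 26811 genes. Counts were TMM scaled and fitted with glmQLFit and glmQLFTest, with a mean for each accession. Dispersions were estimated per gene from all 19 libraries and shared by the accessions. Calls needed a Benjamini-Hochberg adjusted p below 0.05 and at least a 2-fold difference. The standard error is the log2 difference divided by the square root of F. CPM is given as mean ± SD. The direction of spread is the first principal component of log2 CPM (prior count 2) after each accession mean was removed. Libraries were projected on it with accession means kept. Fits were tested on simulated data. No 2 libraries of MN or TN11 differed by sampling noise alone (smallest chi-square per degree of freedom 7.13, over genes with at least 10 counts).

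Genes named are the leading 2 in each direction by difference, by level, by absence from one accession and by the interaction, plus the G locus gene. Those by difference were chosen among called genes whose MN and TN11 libraries do not overlap. The interaction genes, the stretches and the grouping by size of difference were chosen after their values were seen. The samples, comparisons and lists were chosen with earlier results of these data known. The functional lists needed gene names and were dropped. Alternatives were other size factors, no filter, DESeq2, limma-voom, glmTreat, MN and TN11 libraries alone, a replicate block, covariates, no fold minimum and leaving out each library. The tools were DESeq2 1.42.0, limma 3.58.1 and edgeR 4.0.16 in R 4.3.3, and SciPy 1.17.1 in Python 3.11.15.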

Additional observations from a re-analysis of the deposited data

Results flagged for a closer look

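Among 29 sets of 5 values checked for a library far from the rest of its accession, 1 was found, near the rate of about 1 in 20 that chance gives. It was Prupe.1G205600.v2.1 in MN, where MN 5 had 21.0 CPM and the other MN libraries 0 to 2.75 CPM.

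The difference between MN and TN11 was not the same as that between Sunraycer and TN7 in 4744 genes of the edgeR interaction test, and 6 of the genes named above were among them. For Prupe.3G174700.v2.1 the log2 interaction was 1.30 (SE 0.482, adjusted p = 0.0398 in edgeR). For Prupe.2G107700.v2.1 it was 14.7, for Prupe.4G234300.v2.1 17.6, for Prupe.2G023900.v2.1 16.2, for Prupe.1G205600.v2.1 −22.0 and for Prupe.7G044600.v2.1 −18.7. In each of these 5 at least 1 accession had 3 counts or fewer, so the size of the fitted value depends on the prior count and the levels given above describe the difference better.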

How the results depend on the processing

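The count of 2904 genes for MN minus TN11 stayed within 1.5 times under each alternative but one: when the fold minimum was dropped it was 6473 (2652 higher, 3821 lower), and the interaction then had 7962. The other alternatives gave 2210 to 3281 genes, and leaving out 1 library gave 2550 (without TN11 2) to 3023 (without MN 4). The interaction count of 4744 moved to 1763 with the position on the direction of spread as a covariate. Apart from that fit and the one without a fold minimum, the alternatives gave 3371 (glmTreat) to 5655 (score within accessions). Leaving out 1 library gave 3946 (without TN7 3) to 5539 (without Sunraycer 3). PpMYB25 kept its call for MN minus TN11 in all 20 alternatives, at −3.96 to −3.65. The 137 genes over 32-fold lower in MN and also called lower in Sunraycer became 137 to 145 under 4 alternatives. Of the values of the 14 other named genes under the alternatives, 286 kept direction and call, 8 kept direction and lost the call, and 0 reversed. The lost calls were of Prupe.3G174700.v2.1, Prupe.3G248700.v2.1 and Prupe.1G205600.v2.1, each with the position as a covariate and none with the score within accessions. The first and second also lost theirs with glmTreat (adjusted p = 0.110 and 0.0650). With the replicate block Prupe.1G205600.v2.1 stood at −4.46 (SE 1.86, edgeR adjusted p = 0.134) and Prupe.3G174700.v2.1 at 0.987, under the fold minimum, as it also was at 0.9999 without the block on the same libraries.

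Same-numbered libraries of MN and TN11 did not deviate together (correlations across genes −0.380 to −0.0223 for numbers 1, 3, 4 and 5). Pairs with different numbers ran from −0.510 to 0.487. Whether the number marks anything shared cannot be told from these correlations. With the replicate number as a block over the 8 libraries with a shared number, 2210 genes were called, against 2430 without the block, and PpMYB25 stood at −3.96 (SE 0.196, edgeR adjusted p = 0.000462). How depth limits the calls was not tested. With no filter on low counts 3281 genes were called, 2821 of them among the 2904. The fits with a position as covariate, those on the 8 libraries without a block, the fit without Sunraycer 1 and TN7 5, and those of the 137 genes were chosen after seeing the data.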
